A study of Homo sapiens and Mus musculus with 22 samples.

Results

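The 9 genes described here are the 5 NF-kB subunit genes (NFKB1, NFKB2, RELA, RELB and REL), 3 genes of the pathway's negative feedback (NFKBIA, TNFAIP3 and BIRC3) and 1 much-used target, ICAM1. They were picked by symbol, with no measured value in the rule, although earlier results of these data were known when they were chosen. All 9 had a row in each of the 3 deposited count tables, among 25435, 20113 and 24047 genes, and all 9 had counts high enough to be tested, among 15445, 14819 and 14032 genes tested.

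The study sequenced RNA from small cell lung cancer lines and from derivatives of them that differ in the labelled level of MHC class I, the antigen-presenting molecule on the cell surface. There were 22 libraries in 8 groups. From the human line came H69M cells sorted as PD-L1 high (labelled MHC class I high, n = 3), H69M cells sorted as PD-L1 low (labelled low, n = 3), unsorted H69M (labelled high, n = 3) and H69, the NCI-H69 line itself (labelled low or negative, n = 3). H69M was derived from H69 by a published procedure that the labels cite without describing. The H69EZ line, obtained from H69 by a 6-day exposure to an EZH2 inhibitor followed by inhibitor-free culture and selection of adherent cells, gave an HLA-ABC high fraction (n = 2) and an HLA-ABC low fraction (n = 2). The mouse line 631RPP-A (labelled MHC class I high, n = 3) was selected for adherent growth from 631RPP (labelled low or negative, n = 3). These are written RPP-A and RPP here, and the labels do not give their genotype. None of the groups is described as clonal or as carrying a transgene, and every library began from 250 ng of total RNA taken through exome capture.

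NF-kB transcription factors are dimers of the 5 subunits, held in the cytoplasm by inhibitory proteins until a receptor such as those for TNF or interleukin-1 activates the IkB kinases. Once in the nucleus the dimers switch on inflammatory, adhesion and survival genes, and also genes for their own inhibitors and for several of their own subunits, so that the pathway restrains and refills itself. In small cell lung cancer, neuroendocrine cells that grow in suspension and adherent non-neuroendocrine cells can coexist within 1 line.

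Because several of these genes are known targets of NF-kB itself, the stretch upstream of each was searched on both strands. The pattern was the 10-base kB consensus GGGRNNYYCC, where R is A or G, Y is C or T and N is any base. RefSeq promoter windows (GRCh38.p14, 250 bases before to 50 bases after a start) were at hand for 8 of the 9 members, in 12 windows. A match lay in 7 of the 12 windows, belonging to 6 members, against 11.3% of all 35116 windows of that length. The windows of RELA and ICAM1 had no match, and RELB had no window. Near matches were not counted. The ICAM1 window holds tggaaattcc, which departs from the consensus in its first base, so a kB site there is not excluded. All 250 bases before that ICAM1 start are annotated as exon of the gene. The same holds for the NFKB2 window with the first NFKB2 site printed below. Of the 250 bases in the other windows with a printed site, 12 are exon in NFKB2, 30 in NFKB1, 53 in REL, 71 in TNFAIP3, 34 in BIRC3 and 0 in NFKBIA. The matches are printed in capitals with their flanks, 5′ to 3′ on the strand of the gene, to show how alike they are. They describe the reference sequence only and are not evidence of binding.
NFKB1, chr4:102501300-102501329, plus strand: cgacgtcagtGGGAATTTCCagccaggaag
NFKB2, chr10:102394462-102394491, plus strand: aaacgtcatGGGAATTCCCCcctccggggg
NFKB2, chr10:102395674-102395703, plus strand: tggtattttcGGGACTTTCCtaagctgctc
REL, chr2:60881518-60881547, plus strand: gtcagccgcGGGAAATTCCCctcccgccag
NFKBIA, chr14:35404811-35404840, minus strand: tgactggcttGGAAATTCCCcgagcctgac
TNFAIP3, chr6:137867188-137867217, plus strand: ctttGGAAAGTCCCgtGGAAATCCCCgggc
BIRC3, chr11:102317275-102317304, plus strand: tttgggtcatGGAAATCCCCgagtgggttt
BIRC3, chr11:102317339-102317368, plus strand: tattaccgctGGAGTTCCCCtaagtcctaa
The first NFKB2 site and the REL site each hold 2 overlapping matches, 1 base apart, and TNFAIP3 holds 2 separate ones within the same 30 bases. NFKB2 had 2 further sites in its windows that are not printed. The match began 49 bases before the start in NFKB1, 47 in REL, 81 in NFKBIA, 67 and 55 in TNFAIP3, and 199 and 135 in BIRC3. Upstream of NFKBIA, the gene of the classical IkB inhibitor, the 250 bases at chr14:35404750-35404999 on the minus strand hold no annotated exon and read as follows.
NFKBIA upstream: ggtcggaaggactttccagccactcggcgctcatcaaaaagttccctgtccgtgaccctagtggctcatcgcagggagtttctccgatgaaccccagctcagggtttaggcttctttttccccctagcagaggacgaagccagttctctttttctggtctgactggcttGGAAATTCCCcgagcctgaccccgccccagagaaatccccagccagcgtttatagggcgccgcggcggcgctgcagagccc

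Levels are in CPM, read counts divided by library size, scaled by TMM factors within each table. They carry no correction for gene length, so levels of different genes are not compared, and the 3 tables were scaled separately, so levels are not compared across them. Changes are log2 fold changes ± SE from edgeR's quasi-likelihood test, called at an adjusted p under 0.05 over all genes of the table. Whether groups overlap is stated below only to describe the values. The share of all genes whose groups do not overlap is given for the HLA sort alone. Most genes tested were called in every comparison, so separate groups are not read as particular to the members. Total counts ran between 12814594 and 26834561 in the 12 libraries of the H69 table, between 40568796 and 52458228 in the 4 H69EZ libraries and between 10817795 and 19973785 in the 6 mouse libraries. The labels do not say that replicates were separate cultures, so the p-values measure the spread between libraries, which may be technical. In such bulk RNA, more cells of a kind and more RNA per cell cannot be told apart. One RPP library, EHK_RPP4, and one RPP-A library, RPPM3, stood apart from the others of their groups, their counts differing from those of their partners by a chi-square of 28.1 to 37.2 per degree of freedom, where other replicate pairs had 1.33 to 10.5. The 2 other RPP-A libraries, RPPM1 and RPPM2, were the most alike, at 1.33.

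In the H69 family most of the 9 genes were higher in the MHC class I high cells. Between the PD-L1 high and the PD-L1 low fraction 8 of the 9 were called, all of them higher in the PD-L1 high fraction. The background is large, since 78.3% of all genes tested were called there, and 39% of all genes tested were called higher. The median log2 difference of the 9 was 2.39, against 0.00 for all genes, and 6 of the 9 were at least 2-fold higher, as were 16.3% of all genes. Between H69M and H69, 6 were higher, 2 lower and 1 neither, where 72.5% of all genes were called, 35.9% as higher and 36.6% as lower. There the median of the 9 was 0.97, against -0.01 for all genes, and 4 of the 9 were at least 2-fold higher, as were 15.2% of all genes. PD-L1 low cells, labelled MHC class I low like H69, showed 4 members higher, 4 lower and 1 neither relative to H69, with 75.9% of all genes called, 39% as higher and 36.9% as lower. The median of the 9 was -0.30, against 0.02 for all genes, and 3 of the 9 were at least 2-fold higher, as were 16.9% of all genes.

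**Figure D1:**
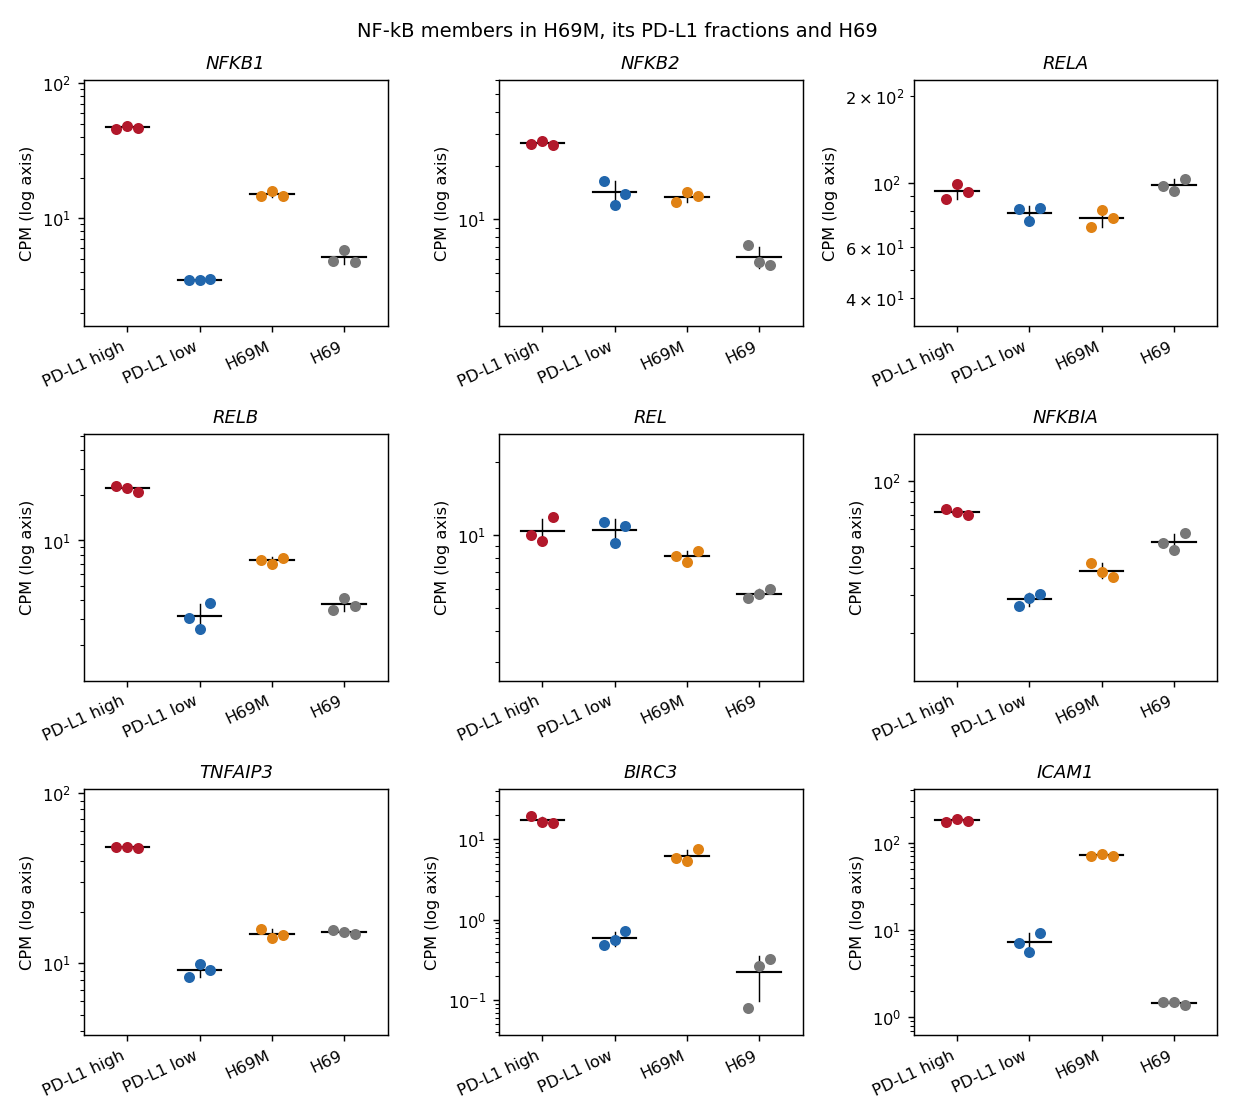
CPM of each member in each library of the H69 table, on a log axis, for the PD-L1 high fraction, the PD-L1 low fraction, unsorted H69M and H69 (n = 3 each); points are libraries, horizontal lines group means and vertical lines ± 1 SD. All members but REL and RELA are highest in the PD-L1 high fraction, while RELA stays between 70.3 and 104 CPM in all 12 libraries.

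Among the subunits, NFKB1, whose product is a precursor cut down to a DNA-binding subunit with no activation domain of its own, spread widest. It had 46.1, 48.2 and 46.8 CPM in the PD-L1 high fraction, 3.50, 3.49 and 3.54 CPM in the PD-L1 low fraction, 14.7, 15.9 and 14.6 CPM in H69M and 4.83, 5.82 and 4.76 CPM in H69. No 2 groups overlapped, and PD-L1 low cells lay below H69. The log2 difference between PD-L1 high and PD-L1 low cells was 3.74 ± 0.09 (adjusted p = 1.91e-18), a 13.4-fold higher level. H69M exceeded H69 by 1.53 ± 0.09 (adjusted p = 7.89e-12), and PD-L1 low cells fell by 0.57 ± 0.12 relative to H69 (adjusted p = 2.37e-04).

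RELB, which pairs mainly with the processed product of NFKB2 in the slower, non-canonical branch of the pathway, had 23.2, 22.4 and 21.1 CPM in PD-L1 high cells, 3.06, 2.56 and 3.83 CPM in PD-L1 low cells, 7.46, 6.97 and 7.69 CPM in H69M and 3.46, 4.15 and 3.63 CPM in H69. PD-L1 high cells came first and H69M second, with no overlap, while PD-L1 low cells and H69 overlapped. The log2 difference was 2.86 ± 0.12 in the PD-L1 sort (adjusted p = 7.88e-15) and 0.97 ± 0.12 between H69M and H69 (adjusted p = 7.16e-07). Between PD-L1 low cells and H69 it was -0.30 ± 0.15 (adjusted p = 0.0772). That comparison turned on 1 library, since without PD-L1 low replicate 3 the difference was -0.42 (adjusted p = 0.0193).

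NFKB2 followed another order. It had 26.5, 27.4 and 26.1 CPM in PD-L1 high cells, 16.5, 12.1 and 13.9 CPM in PD-L1 low cells, 12.5, 14.2 and 13.5 CPM in H69M and 7.16, 5.82 and 5.57 CPM in H69. Here H69 alone was lowest, and the PD-L1 low fraction overlapped unsorted H69M. PD-L1 low cells exceeded H69 by 1.18 ± 0.12 on the log2 scale (adjusted p = 2.33e-08), and PD-L1 high cells exceeded PD-L1 low cells by 0.91 ± 0.10 (adjusted p = 6.36e-08). Between PD-L1 low cells and H69M the difference was 0.09 ± 0.11 (adjusted p = 0.485), and it was negative, -0.06, without PD-L1 low replicate 1. Between H69M and H69 it was 1.09 ± 0.12 (adjusted p = 6.75e-08).

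REL, the subunit best known from lymphoid cells, had 9.98, 9.40 and 11.8 CPM in PD-L1 high cells, 11.3, 9.26 and 10.8 CPM in PD-L1 low cells, 8.18, 7.76 and 8.57 CPM in H69M and 5.51, 5.70 and 5.97 CPM in H69. The 2 sorted fractions overlapped, both lay above H69M and H69M lay above H69. REL was the 1 member not called in the PD-L1 sort, with a log2 difference of -0.02 ± 0.11 (adjusted p = 0.870). It was higher than in H69 by 0.86 ± 0.11 in PD-L1 high cells (adjusted p = 9.38e-07), by 0.88 ± 0.11 in PD-L1 low cells (adjusted p = 7.10e-07) and by 0.52 ± 0.11 in H69M (adjusted p = 3.80e-04). Its excess over H69M was 0.33 in PD-L1 high and 0.35 in PD-L1 low cells (adjusted p = 0.00891 and 0.00614). The first lost its call without PD-L1 high replicate 3 (0.20, adjusted p = 0.120), and the second without PD-L1 low replicate 1 (0.28, adjusted p = 0.0549). REL overlaps a same-strand noncoding RNA (GENCODE name AC010733.2), so its reads may have been divided or left out in counting.

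RELA, which carries the main activation domain of the canonical dimer, moved least. It had 88.3, 99.4 and 93.2 CPM in PD-L1 high cells, 81.1, 74.1 and 82 CPM in PD-L1 low cells, 70.3, 80.6 and 75.6 CPM in H69M and 97.6, 94.0 and 104 CPM in H69. The PD-L1 high fraction overlapped H69, and the PD-L1 low fraction overlapped unsorted H69M. RELA was lower in H69M than in H69, by -0.38 ± 0.06 (adjusted p = 2.13e-05), and lower in PD-L1 low cells than in H69, by -0.31 ± 0.06 (adjusted p = 1.76e-04). In PD-L1 high cells the difference from H69 was -0.07 ± 0.06 (adjusted p = 0.328). The difference of 0.24 ± 0.06 between PD-L1 high and PD-L1 low cells (adjusted p = 0.00173) was not called with library totals in place of TMM (0.11, adjusted p = 0.132), a scaling that moved the median of all genes by -0.14.

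NFKBIA encodes the inhibitor that holds RELA dimers in the cytoplasm and is among the first genes they induce. It had 74.5, 71.8 and 69.6 CPM in PD-L1 high cells, 26.6, 29 and 30.4 CPM in PD-L1 low cells, 42.1, 38.1 and 36.0 CPM in H69M and 52.0, 48.4 and 57.5 CPM in H69. The 4 groups did not overlap, with PD-L1 high cells highest, then H69, then H69M, and PD-L1 low cells lowest. Its log2 difference was 1.34 ± 0.07 in the PD-L1 sort (adjusted p = 1.44e-12) and 0.46 ± 0.07 between PD-L1 high cells and H69 (adjusted p = 5.98e-06). H69M fell by 0.43 ± 0.07 relative to H69 (adjusted p = 2.15e-05), and PD-L1 low cells fell by 0.87 ± 0.08 (adjusted p = 2.33e-09).

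TNFAIP3, the ubiquitin-editing enzyme that shuts off signalling upstream of the IkB kinases, had 48.1, 48.0 and 47.5 CPM in PD-L1 high cells, 8.33, 9.95 and 9.11 CPM in PD-L1 low cells, 15.9, 14.0 and 14.7 CPM in H69M and 15.6, 15.2 and 14.9 CPM in H69. PD-L1 high cells stood apart above the others and PD-L1 low cells apart below, while H69M and H69 overlapped. The log2 difference was 2.39 ± 0.08 in the sort (adjusted p = 1.89e-16) and -0.74 ± 0.08 between PD-L1 low cells and H69 (adjusted p = 1.35e-07). TNFAIP3 was the 1 member not called between H69M and H69, at -0.04 ± 0.08 (adjusted p = 0.651). Without H69M replicate 2 that difference was 0.0014.

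BIRC3, a ubiquitin ligase that protects cells from TNF-induced death and limits the non-canonical branch, was close to undetected in H69. It had 19.4, 16.3 and 16.0 CPM in PD-L1 high cells, 0.488, 0.558 and 0.723 CPM in PD-L1 low cells, 5.84, 5.32 and 7.54 CPM in H69M and 0.0805, 0.264 and 0.323 CPM in H69. The H69 values rest on 2, 7 and 4 reads and the PD-L1 low values on 10 to 12 each. All 4 groups were separate. BIRC3 was 4.91 ± 0.20 higher on the log2 scale in PD-L1 high than in PD-L1 low cells (adjusted p = 1.06e-14), and 4.90 ± 0.28 higher in H69M than in H69 (adjusted p = 4.39e-12). The difference between PD-L1 low cells and H69, 1.46 ± 0.50 (adjusted p = 0.0125), lost its call without H69 replicate 1 (0.99, adjusted p = 0.0878).

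ICAM1, a surface molecule that leukocyte integrins bind, gave the largest difference of the 9 between H69M and H69. It had 174, 190 and 178 CPM in PD-L1 high cells, 7.14, 5.63 and 9.33 CPM in PD-L1 low cells, 71.3, 74.5 and 70.5 CPM in H69M and 1.49, 1.51 and 1.37 CPM in H69. Again all 4 groups were separate, in the order PD-L1 high, H69M, PD-L1 low, H69. The log2 difference was 5.61 ± 0.13 between H69M and H69 (adjusted p = 2.55e-18), a 48.7-fold higher level. It was 4.66 ± 0.10 in the sort (adjusted p = 1.94e-19) and 2.28 ± 0.17 between PD-L1 low cells and H69 (adjusted p = 3.29e-10). ICAM1 and TNFAIP3 overlap antisense genes in GENCODE. The sources used here do not give the strand setting of the counting, and reads from those partners may be included.

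The 3 remaining comparisons of the H69 table place the members as follows. Relative to unsorted H69M, all 9 were higher in PD-L1 high cells, with 70.4% of all genes called and 37.8% higher, and log2 differences between 0.31 for RELA and 1.69 for TNFAIP3. Of these, 5 were at least 2-fold higher, as were 15% of all genes. Relative to the same H69M libraries, PD-L1 low cells had 1 member higher (REL), 6 lower and 2 neither (NFKB2 and RELA), with 65.6% of all genes called, 32.6% as higher and 33% as lower. Of the 6, 4 were at least 2-fold lower, as were 7.92% of all genes. The falls there were largest for BIRC3, at -3.45 ± 0.23, and ICAM1, at -3.33 ± 0.10. Between PD-L1 high cells and H69, 8 were higher and RELA was neither, with 77.6% of all genes called, 38.1% as higher, and ICAM1 differed most, at 6.93 ± 0.12. These comparisons share libraries with one another and are not independent.

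The sort gave large differences in other lists of the same cells. CD274, the gene of PD-L1, averaged 13.3 ± 0.42 CPM in PD-L1 high cells, 0.265 ± 0.15 in PD-L1 low cells, 4.02 ± 0.73 in H69M and 0.0781 ± 0.037 in H69 (SD, n = 3 each). The summed level of 7 fibroblast markers, 6 of which were higher and 1 lower in the sort, was 11107 to 11398 CPM in PD-L1 high cells, 294 to 389 in PD-L1 low cells, 2499 to 2788 in H69M and 229 to 233 in H69. All 6 non-neuroendocrine markers were higher, summing to 2689 to 2786 CPM in PD-L1 high cells, 59.2 to 85.8 in PD-L1 low cells, 753 to 771 in H69M and 84.0 to 95.4 in H69, where YAP1 was at 0. All 8 neuroendocrine markers were lower in the sort, summing to 1100 to 1156 CPM in PD-L1 high cells, where NEUROD1 was at 0, and to 4030 to 4261 in PD-L1 low cells. The same sum was 2812 to 2890 CPM in H69M and 2860 to 3037 in H69. Of the 10 leukocyte markers 4 were tested and 3 were higher in the sort; they summed to 10.7 to 11.5 CPM in PD-L1 high cells, 2.05 to 2.61 in PD-L1 low cells, 4.90 to 5.03 in H69M and 3.47 to 4.23 in H69, with CD3E, CD3D and MS4A1 at 0 in all 4 groups. Of the 6 endothelial markers 4 were tested, 3 higher and 1 lower, and they summed to 9.71 to 10.6 CPM in PD-L1 high cells, 1.46 to 1.74 in PD-L1 low cells, 3.19 to 3.48 in H69M and 2.82 to 3.39 in H69, where KDR and ERG were at 0. Of the 11 immediate-early and heat-shock genes, which handling can induce, 10 were tested, 5 higher and 3 lower, and they summed to 680 to 697 CPM in PD-L1 high and 646 to 708 in PD-L1 low cells. Among them ATF3, picked out after its values were seen, averaged 9.72 CPM in PD-L1 high and 109 CPM in PD-L1 low cells. The part of these lists in the members' differences was not tested.

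Over the 12 libraries, the 2 genes whose log2 CPM ran closest to each member were GALC and FRMD6 for NFKB1 (Pearson r = 0.998 and 0.997), LMNA and PEPD for RELB (0.996 and 0.995), APOL2 and CASC4 for TNFAIP3 (0.997 and 0.996), ITGA2 and RBPMS for BIRC3 (0.995 and 0.995) and LOXL2 and PDGFRB for ICAM1 (0.999 and 0.999). For NFKB2 they were IQSEC2 and PTPRN (0.996 and 0.994), for NFKBIA PRICKLE1 and SPRYD3 (0.990 and 0.989), for REL PTPRH and SEC24B (0.973 and 0.972) and for RELA DAB2IP and MPRIP (0.972 and 0.965). Among the members themselves, NFKB1 ran with RELB (r = 0.985) and BIRC3 with ICAM1 (0.982), while RELA ran weakly against REL (-0.376). The libraries form 4 groups, so these values describe the order of group means and little else.

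In H69EZ the HLA-ABC sort also found most of the members higher in the MHC class I high fraction. Of the 9, 7 were higher in the HLA high fraction, none was lower and RELA and NFKBIA were neither, while 81.3% of all genes were called and 41.1% were higher. The median log2 difference of the 9 was 1.09, against 0.00 for all genes, and 5 of the 9 were at least 2-fold higher, as were 19.5% of all genes. With 2 libraries a side, 2 residual degrees of freedom were left, so edgeR's spread was taken from all genes together, and the very small p-values it returned should be read with that in mind.

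**Figure D2:**
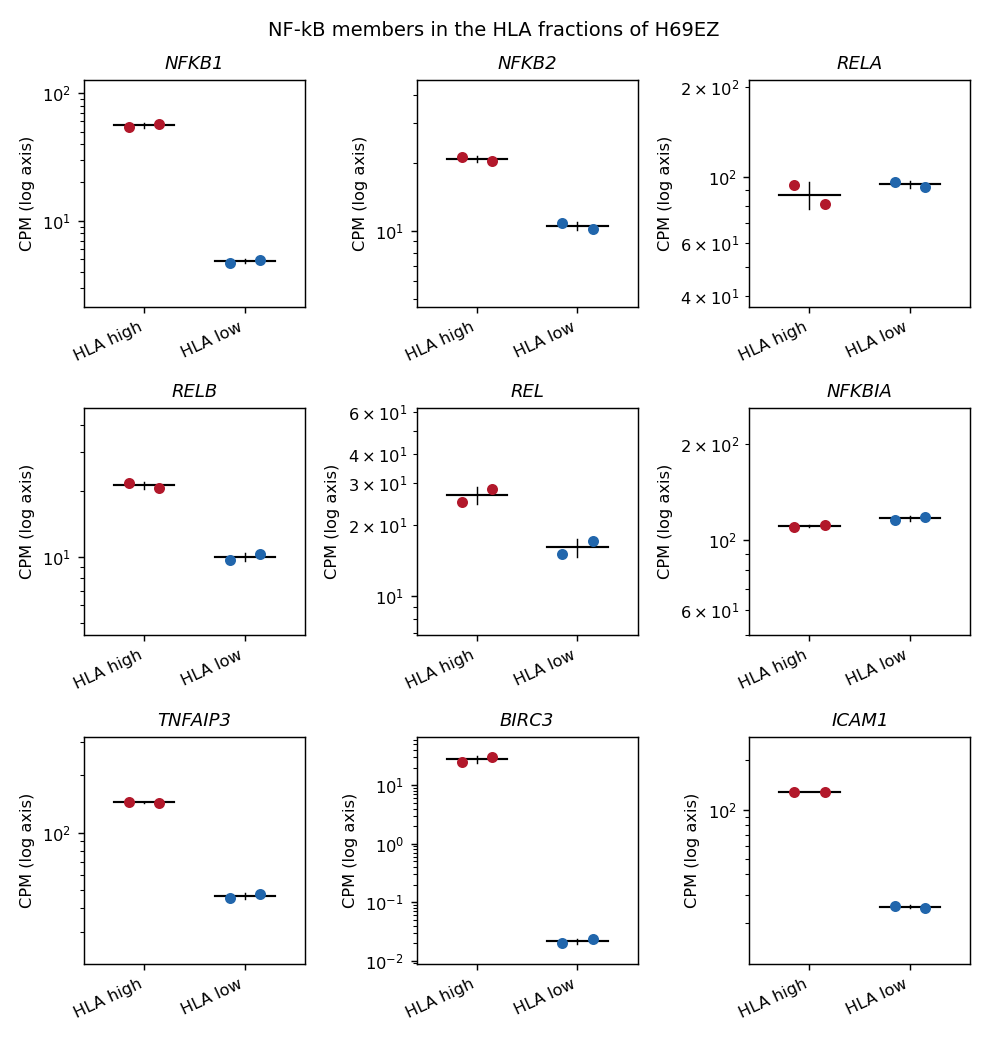
CPM of each member in each H69EZ library, on a log axis, for the HLA high and the HLA low fraction (n = 2 each); points are libraries, horizontal lines group means and vertical lines ± 1 SD. BIRC3 shows the widest gap, with 1 read in each HLA low library, and RELA and NFKBIA the narrowest.

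NFKB1 again led the subunits, with 54.5 and 57.9 CPM in HLA high cells against 4.70 and 4.97 CPM in HLA low cells, a log2 difference of 3.54 ± 0.09 and an 11.6-fold higher level. RELB had 21.6 and 20.6 CPM in HLA high and 9.65 and 10.3 CPM in HLA low cells (1.09 ± 0.09, adjusted p = 1.30e-32). NFKB2 had 21.2 and 20.4 CPM in HLA high and 10.9 and 10.2 CPM in HLA low cells (0.98 ± 0.09, adjusted p = 4.32e-27). The fractions did not overlap for any of these 3, as for 90.2% of all genes with 2 libraries a side. REL, which did not differ detectably in the PD-L1 sort, had 25.1 and 28.4 CPM in HLA high and 15 and 17.1 CPM in HLA low cells (0.74 ± 0.08, adjusted p = 2.25e-18). RELA had 93.5 and 80.8 CPM in HLA high and 96.1 and 92.5 CPM in HLA low cells, which overlap, and its log2 difference was -0.11 ± 0.07 (adjusted p = 0.110). RELA was called lower with library totals in place of TMM (-0.26, adjusted p = 2.41e-04), which moved the median of all genes by -0.15, and without HLA high replicate 1 (-0.22, adjusted p = 2.42e-06).

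Of the feedback genes, TNFAIP3 had 145 and 144 CPM in HLA high and 45.1 and 47.8 CPM in HLA low cells, a log2 difference of 1.64 ± 0.07 (adjusted p = 2.33e-124). NFKBIA had 110 and 111 CPM in HLA high and 115 and 118 CPM in HLA low cells, and its log2 difference was -0.08 ± 0.07 (adjusted p = 0.236). Its fractions did not overlap, which holds for 90.2% of all genes with 2 libraries a side, and it was called lower with library totals (-0.23, adjusted p = 5.25e-04). BIRC3 had 25.1 and 30.8 CPM in HLA high cells and 0.0198 and 0.0232 CPM in HLA low cells. The HLA low values are 1 read each, so the ratio of 1290 has a 95% interval from 357 to 10659 for counting error alone. ICAM1 had 127 CPM in both HLA high libraries against 25.6 and 24.9 CPM in HLA low cells, a log2 difference of 2.33 ± 0.07 and a 5.03-fold higher level.

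The same fractions differed in other lists. CD274 averaged 32.8 ± 0.94 CPM in HLA high and 0.365 ± 0.041 in HLA low cells (SD, n = 2 each), although the sort was on HLA-ABC. All 7 fibroblast markers were higher, at a sum of 16379 to 17820 CPM in HLA high and 104 to 105 in HLA low cells, where COL3A1 was at 0. All 6 non-neuroendocrine markers were higher (2127 to 2167 CPM in HLA high, 38.1 to 38.2 in HLA low), and 6 of 7 neuroendocrine markers tested were lower (558 to 580 in HLA high, 1941 to 1958 in HLA low). All 5 endothelial markers were higher (232 to 243 in HLA high, 0.186 to 0.296 in HLA low, where KDR was at 0). Of these 5, 3 averaged under 1 CPM even in HLA high cells, so the sum there rests on the others. Of 4 leukocyte markers tested 3 were higher, and the list summed to 7.12 to 7.99 CPM in HLA high and 4.99 to 5.53 in HLA low cells, with CD3E, CD3D, MS4A1 and LYZ at 0 in both. Of the 11 immediate-early and heat-shock genes 4 were higher and 6 lower, and they summed to 1108 to 1182 CPM in HLA high and 1583 to 1627 in HLA low cells. The part of these lists in the members' differences was not tested.

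In the mouse lines 8 of the 9 members were higher in RPP-A than in RPP, and Icam1 was lower. Of all genes, 78.2% were called, 37.6% as higher and 40.6% as lower, and 22.9% were at least 2-fold higher, as all 8 of these members were. Their median with Icam1 included was 2.98 on the log2 scale, against -0.04 for all genes. All 5 subunits rose, Rela and Rel among them, each by at least 2-fold.

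**Figure D3:**
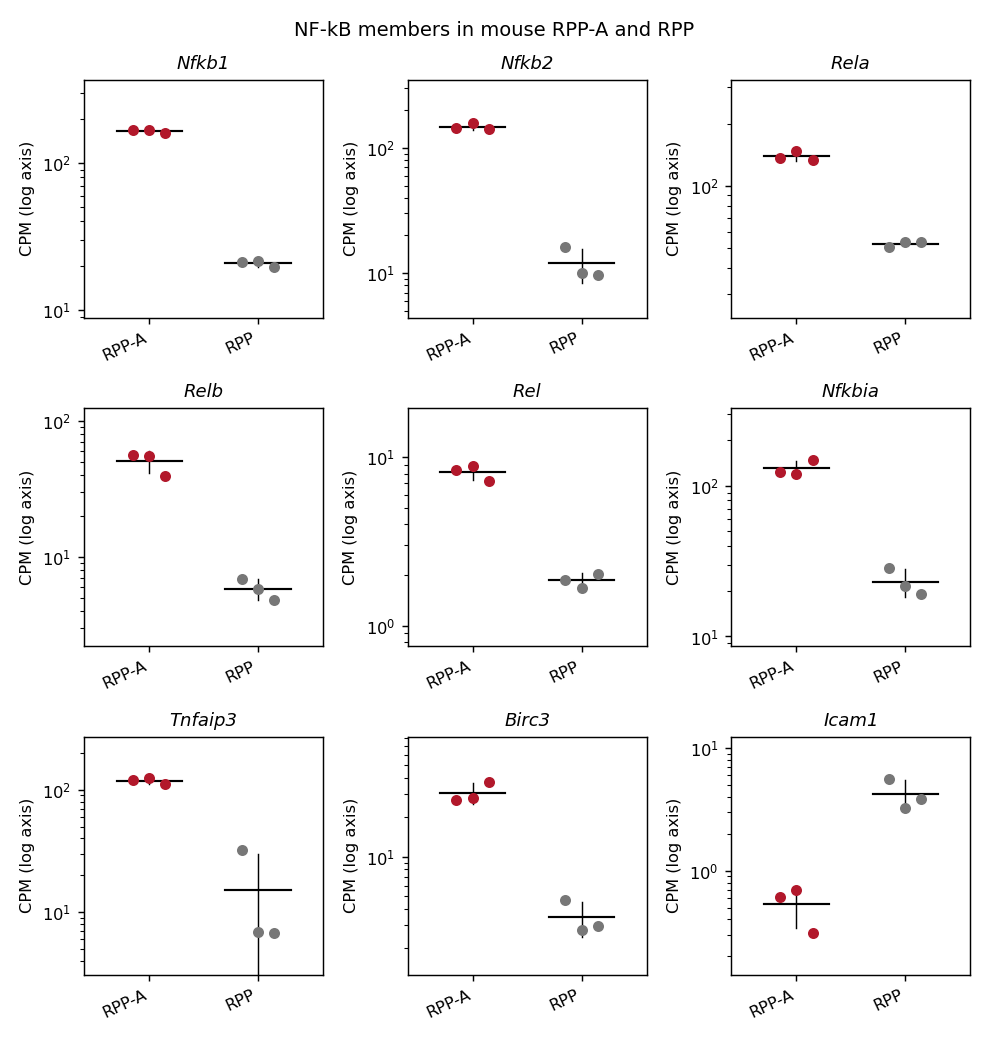
CPM of each mouse member in each library, on a log axis, for RPP-A and RPP (n = 3 each); points are libraries, horizontal lines group means and vertical lines ± 1 SD (the lower end for Tnfaip3 in RPP runs off the axis). Icam1 alone is lower in RPP-A, and 1 RPP library is high for Tnfaip3.

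Below, RPP-A values are in the order RPPM1, RPPM2 and RPPM3, and RPP values in the order EHK_RPP4, RPP1 and RPP2. Nfkb1 had 168, 168 and 160 CPM in RPP-A and 21.0, 21.6 and 19.5 CPM in RPP, a log2 difference of 2.99 ± 0.09 (adjusted p = 1.75e-07). Nfkb2 had 144, 159 and 141 CPM in RPP-A and 16.1, 10.04 and 9.70 CPM in RPP (3.63 ± 0.20, adjusted p = 1.87e-06), a 12.4-fold higher level. Both precursor subunits were thus far apart in every library, with EHK_RPP4 the highest RPP library for Nfkb2. Relb had 56.4, 55.0 and 39.7 CPM in RPP-A and 6.85, 5.82 and 4.85 CPM in RPP (3.11 ± 0.19, adjusted p = 3.32e-06). Rel had 8.40, 8.90 and 7.25 CPM in RPP-A and 1.88, 1.66 and 2.04 CPM in RPP (2.13 ± 0.19, adjusted p = 2.47e-05). Rela had 137, 148 and 134 CPM in RPP-A and 50.8, 53.3 and 53.4 CPM in RPP (1.41 ± 0.09, adjusted p = 2.91e-06).

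Nfkbia had 123, 119 and 148 CPM in RPP-A and 28.4, 21.7 and 19.0 CPM in RPP (2.50 ± 0.17, adjusted p = 5.12e-06). Birc3 had 27.0, 28.2 and 37.5 CPM in RPP-A and 4.65, 2.77 and 2.95 CPM in RPP (3.17 ± 0.24, adjusted p = 8.59e-06). Tnfaip3 had 120, 124 and 111 CPM in RPP-A, against 32.1, 6.79 and 6.75 CPM in RPP, where EHK_RPP4 was far above the other 2 libraries. Its log2 difference of 2.98 ± 0.57 (adjusted p = 0.00168) was 4.17 without EHK_RPP4 (adjusted p = 7.29e-08). Icam1 ran the other way at low counts, with 0.610, 0.689 and 0.312 CPM in RPP-A (9, 12 and 5 reads) against 5.63, 3.26 and 3.87 CPM in RPP (69, 47 and 55 reads). It was 7.75-fold lower in RPP-A, a log2 difference of -2.95 ± 0.36 (adjusted p = 1.38e-04), and the lines did not overlap.

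Library totals in place of TMM moved the median of all mouse genes by -0.40, and all 9 member calls kept their direction. Cd274 averaged 4.96 ± 1.1 CPM in RPP-A and 31.5 ± 0.84 in RPP (SD, n = 3 each), lower in RPP-A like Icam1. All 7 fibroblast markers were higher in RPP-A, summing to 22734 to 30360 CPM there and 123 to 508 in RPP, where Lum was at 0. All 6 non-neuroendocrine markers were higher (4220 to 4500 in RPP-A, 41.8 to 167 in RPP), and all 8 neuroendocrine markers were lower (151 to 191 in RPP-A, 2354 to 2903 in RPP). Of 3 leukocyte markers tested 2 were higher, and the list summed to 35.0 to 38.8 CPM in RPP-A and 2.53 to 3.19 in RPP, with Cd3e, Cd3d and Ms4a1 at 0 in both lines and Ptprc at 0 in RPP-A. Of 4 endothelial markers tested 2 were lower, and the list summed to 3.69 to 5.68 CPM in RPP-A, where Cdh5 was at 0, and to 45.9 to 53.5 in RPP. Of the 11 immediate-early and heat-shock genes 6 were higher and 3 lower, and they summed to 509 to 690 CPM in RPP-A and to 701 in EHK_RPP4, against 235 and 230 in the other RPP libraries. EHK_RPP4 was also the RPP library with the sums of 508 CPM for fibroblast and 167 CPM for non-neuroendocrine markers. The part of these lists in the members' differences was not tested.

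**Figure D4:**
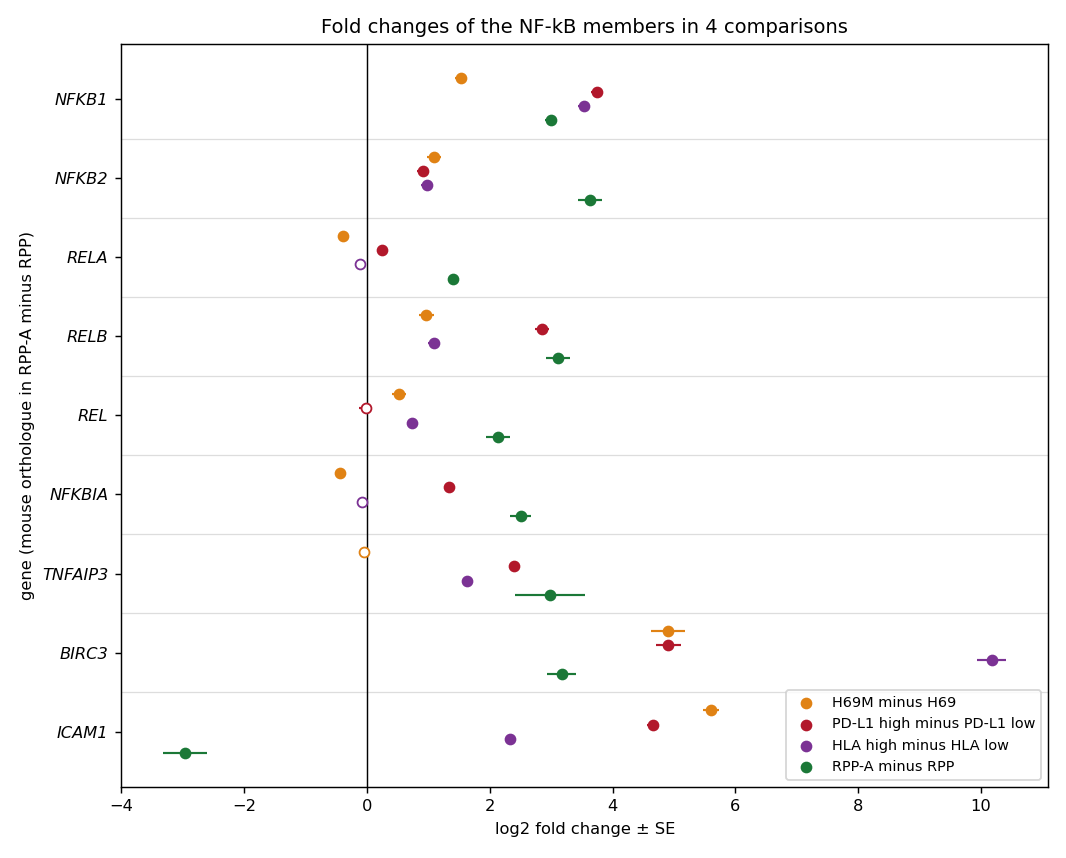
Log2 fold change ± SE (x axis) of each member in 4 comparisons, by gene (y axis, mouse orthologue for RPP-A minus RPP); open points did not pass an adjusted p of 0.05. NFKB1, NFKB2, RELB and BIRC3 lie to the right of 0 in all 4, and RELA and NFKBIA lie on both sides. REL and TNFAIP3 lie to the right but for 1 open point each, just left of 0. ICAM1 lies to the right in the 3 human comparisons and to the left in the mouse one.

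Set side by side, 4 members were called higher in each of the 4 comparisons of MHC class I high with low cells plotted by gene, namely NFKB1, NFKB2, RELB and BIRC3. The same held for 1218 of the 11213 genes tested in all 3 tables and matched by symbol, or 10.9%. These 4 comparisons are not independent systems, since the PD-L1 fractions were sorted from H69M and H69EZ was obtained from H69. For NFKB1 the log2 differences were 1.53 for H69M over H69, 3.74 for PD-L1 high over PD-L1 low, 3.54 for HLA high over HLA low and 2.99 for RPP-A over RPP. REL was called higher in all but the PD-L1 sort, and TNFAIP3 in all but H69M. RELA was lower in H69M (-0.38), slightly higher in the PD-L1 sort (0.24), not called in the HLA sort and higher in RPP-A (1.41). The differences between these comparisons were not tested.

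The rest of the pathway was followed in a list of 81 genes outside the 9, sorted by role. In the PD-L1 sort 68 were tested, and 50 rose, 11 fell and 7 were not called in PD-L1 high cells. Among all genes tested, 78.3% were called there, 39% as higher, and 16.3% were at least 2-fold higher. The median log2 difference of the 68 was 1.13, against 0.00 for all genes. Of 20 targets tested 18 were higher, 15 of them at least 2-fold (median 3.51). VCAM1, an adhesion molecule like ICAM1, averaged 43.8 CPM in PD-L1 high and 0.472 CPM in PD-L1 low cells (6.70 ± 0.21, adjusted p = 1.14e-16). IL6, a cytokine gene, averaged 1.42 CPM in PD-L1 high cells and had no read in PD-L1 low cells, at least 27.5-fold higher against 3 reads over the group. The 2 targets that fell were the survival gene TNFAIP8 (31.9 CPM in PD-L1 high, 55.1 in PD-L1 low, -0.78 ± 0.08) and the chemokine CXCL8 (2.82 CPM in PD-L1 high, 4.19 in PD-L1 low, -0.57 ± 0.15). Among 11 inhibitors and regulators 9 rose and 1 fell. TNIP1, a partner of TNFAIP3, averaged 124 CPM in PD-L1 high and 10.6 CPM in PD-L1 low cells (3.56 ± 0.08), TNIP3 averaged 3.17 CPM in PD-L1 high cells with 1 read in all in PD-L1 low cells, and NFKBIB, a second IkB gene, fell by 1.02 (55.5 CPM in PD-L1 high, 113 in PD-L1 low).

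Upstream in the same sort, where 39% of all genes tested were called higher, 15 of 24 adaptors and kinases rose and 3 fell. IKBKE, an IkB kinase relative, averaged 12.6 CPM in PD-L1 high and 0.995 CPM in PD-L1 low cells (3.66 ± 0.16), and the TNF receptor adaptor TRAF1 averaged 13.6 CPM in PD-L1 high and 2.80 in PD-L1 low cells (2.28 ± 0.14). TRAF5 fell by 0.65 and TAB1 by 0.24. Of 8 receptors tested 5 rose and 3 fell. The bacterial lipoprotein sensor TLR2 averaged 9.02 CPM in PD-L1 high and 0.155 CPM in PD-L1 low cells, and the RNA sensor TLR3 averaged 1.82 CPM in PD-L1 high cells with 1 read in all in PD-L1 low cells. TNFRSF11A fell by 1.33 and the lymphotoxin receptor LTBR by 1.12. Of 5 ligands tested 3 rose and 2 fell. IL1B averaged 8.98 CPM in PD-L1 high cells and rested on 2 reads in PD-L1 low cells (ratio 263, 95% interval 72.4 to 2178 for counting error), IL1A averaged 1.94 CPM in PD-L1 high and 0.0684 in PD-L1 low cells (4.69 ± 0.49), and the lymphotoxin gene LTB fell by 3.30 (0.215 CPM in PD-L1 high, 2.25 in PD-L1 low).

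Between H69M and H69, 41 of the 68 genes tested were higher, 17 were lower and 10 were not called. Among all genes tested, 72.5% were called, 35.9% as higher and 36.6% as lower. The median of the 68 was 0.47 (0.45 with the 4 genes at 0 in a group held at their bound), against -0.01 for all genes. By role, the higher, lower and neither counts were 14, 5 and 1 for targets and 9, 1 and 1 for inhibitors and regulators. They were 13, 6 and 5 for adaptors and kinases, 3, 3 and 2 for receptors and 2, 2 and 1 for ligands. The ligands split sharply. IL1B averaged 7.62 CPM in H69M with no read in H69, at least 161-fold higher against 3 reads over the group, while TNF averaged 0.0797 CPM in H69M and 2.86 CPM in H69 (-5.18 ± 0.39) and LTB averaged 0.382 CPM in H69M and 8.48 in H69 (-4.46 ± 0.19). TNFRSF12A, a TNF family receptor, averaged 35.5 CPM in H69M and 4.35 CPM in H69 (3.03 ± 0.09), and TNFRSF11A averaged 21.7 CPM in H69M and 65.9 in H69 (-1.60 ± 0.07). TNIP1 averaged 39.2 CPM in H69M and 3.00 CPM in H69 (3.73 ± 0.10). VCAM1 and the cytokine LIF averaged 5.33 and 4.56 CPM in H69M and had 1 read each in H69, and CXCL8 averaged 3.36 CPM in H69M and 13.9 CPM in H69 (-2.06 ± 0.12). IRAK4, RIPK1, OTULIN and CFLAR fell by 0.74, 0.50, 0.21 and 0.48.

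**Figure D5:**
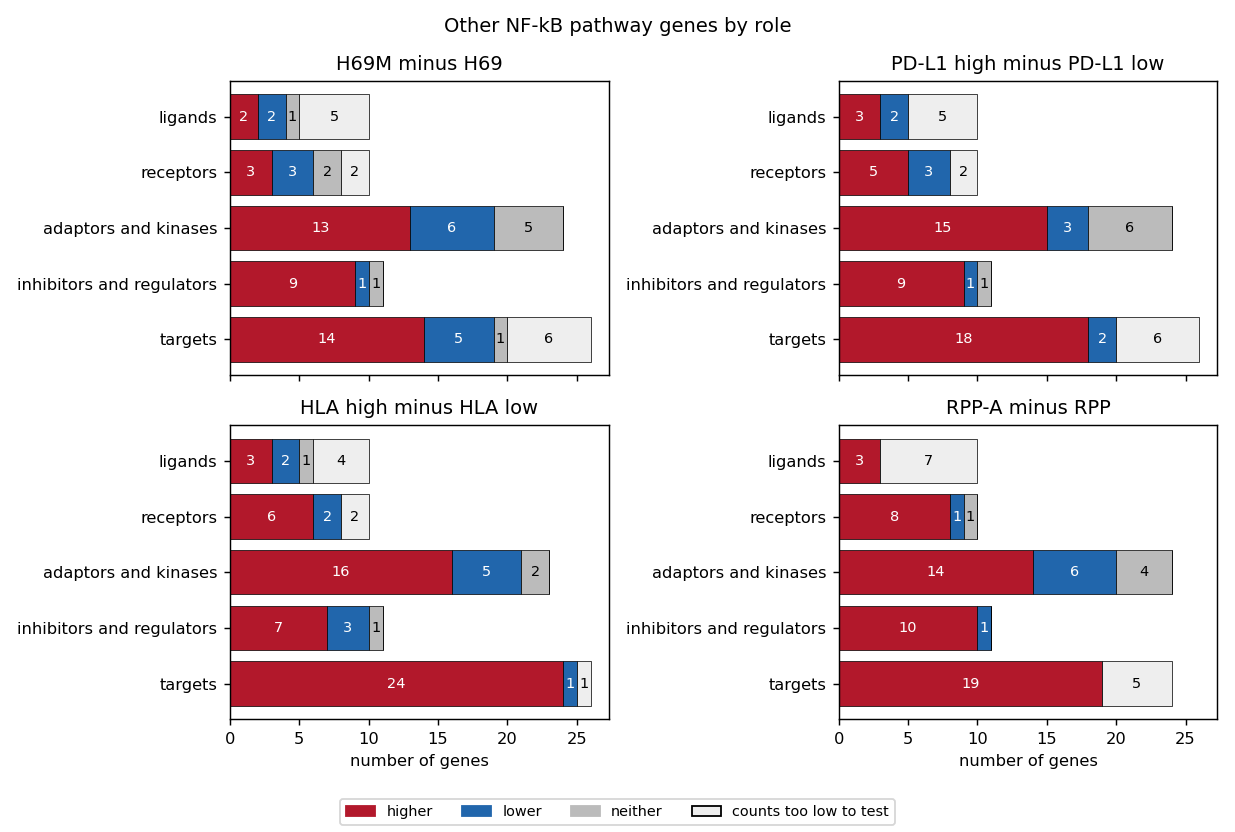
Number of other pathway genes (x axis) by role (y axis) that were higher, lower or neither at an adjusted p of 0.05, or too low in counts to test, in 4 comparisons. Among targets the higher calls are 14 of 20 tested for H69M over H69 and 18 of 20 for PD-L1 high over PD-L1 low. They are 24 of 25 for HLA high over HLA low and 19 of 19 for RPP-A over RPP. Among all genes tested, 35.9%, 39%, 41.1% and 37.6% were called higher in the same 4 comparisons.

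PD-L1 low cells set against H69 gave a more even split of the pathway. Of 68 genes 25 were higher, 18 were lower and 25 were not called. Among all genes tested, 75.9% were called there, 39% as higher and 36.9% as lower. The median of the 68 was 0.17 (0.13 with 5 genes at their bound), against 0.02 for all genes. TNIP1 was higher (10.6 CPM in PD-L1 low, 3.00 in H69, 1.83 ± 0.11), as were BCL3, a nuclear IkB protein (1.63 ± 0.23), TNFRSF12A (1.83 ± 0.10) and TRAF5 (1.22 ± 0.06). TNF (-2.96 ± 0.30), LTB (-1.90 ± 0.14), the growth factor gene CSF1 (-2.05 ± 0.19), CXCL8 (-1.72 ± 0.11) and the lipopolysaccharide receptor TLR4 (-1.37 ± 0.08) were lower. Of 20 targets tested there, 7 were higher, 5 were lower and 8 were not called. The higher ones included TNFAIP2 (5.24 CPM in PD-L1 low, 1.87 in H69) and IRF1 (32.7 CPM in PD-L1 low, 17.0 in H69). The remaining comparisons of the H69 table called 50 higher and 12 lower for PD-L1 high over H69 and 52 and 6 for PD-L1 high over H69M. They called 16 and 35 for PD-L1 low over H69M. Among all genes tested, 38.1%, 37.8% and 32.6% were called higher there, in the same order, and 33% were called lower in the last.

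In the HLA sort 73 of the 80 pathway genes with a row were tested, and 56 were higher, 13 were lower and 4 were not called. Among all genes tested, 81.3% were called, 41.1% as higher, and 19.5% were at least 2-fold higher. The median of the 73 was 1.21, against 0.00 for all genes. Of 25 targets 24 were higher and 22 at least 2-fold higher, with TNFAIP8 the exception (-0.28 ± 0.07). CXCL1, a chemokine gene, averaged 16.1 CPM in HLA high cells and had no read in HLA low cells, at least 501-fold higher against 3 reads over the group, and VCAM1 averaged 53.0 CPM in HLA high cells with 1 read in HLA low cells. IL1B and IL1A averaged 38.4 and 12.7 CPM in HLA high cells, against 1 and 2 reads over the HLA low group, while TNF averaged 14.6 CPM in HLA high and 37.8 CPM in HLA low cells (-1.37 ± 0.08). TNFRSF1A, the main TNF receptor, averaged 69.3 CPM in HLA high and 7.43 CPM in HLA low cells (3.22 ± 0.09), and the signalling protease MALT1 averaged 184 CPM in HLA high and 24.7 in HLA low cells (2.90 ± 0.07). TNIP1 averaged 134 CPM in HLA high and 2.68 CPM in HLA low cells (5.65 ± 0.10), and NFKBIB averaged 35.3 CPM in HLA high and 111 in HLA low cells (-1.65 ± 0.07). The kinase gene CHUK fell by 0.51 and TRAF2 by 0.83.

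In RPP-A 67 of 79 pathway genes with a row were tested, and relative to RPP 54 were higher, 8 were lower and 5 were not called. Among all genes tested, 78.2% were called, 37.6% as higher and 40.6% as lower, and 22.9% were at least 2-fold higher. The median of the 67 was 1.97, against -0.04 for all genes. All 19 targets tested were higher, 18 of them at least 2-fold, led by Ptx3 (185 CPM in RPP-A, 3 reads in all in RPP) and Cxcl1 (768 CPM in RPP-A, 0.680 CPM in RPP, 10.24 ± 0.88). Of 11 inhibitors and regulators 10 were higher and Nfkbid was lower (-4.14 ± 0.36). Among the 10 was Nfkbiz, a nuclear IkB protein (181 CPM in RPP-A, 5.61 CPM in RPP, 5.02 ± 0.20). The interleukin-1 receptor Il1r1 averaged 99.5 CPM in RPP-A and 1.61 CPM in RPP (5.99 ± 0.34), Tlr2 averaged 36.6 CPM in RPP-A and 0.963 in RPP (5.25 ± 0.24), and Cd40 averaged 0.330 CPM in RPP-A and 1.72 in RPP (-2.33 ± 0.41). The kinase genes Ikbke and Irak2 rose by 4.13 and 3.90, and Tab3 and Map3k7 fell by 1.08 and 0.78. Of 10 ligands only 3 were tested, and all 3 were higher, Il1a and Tnfsf13b among them. Tnf and Il1b had no read in either line.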

How the data were processed

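Total RNA was captured with an exome kit and sequenced, per the labels' protocols. These name a human exome capture kit for the mouse lines too, and its effect on the mouse levels was not tested. Reads were aligned with STAR 2.6.1 to hg19 or mm10, per the submitters' processing notes. For the counting program, annotation and strand setting: not given in the sources used here. The authors deposited raw counts per gene in 3 tables. All columns were used, and mouse columns were matched to groups by name (RPPM as RPP-A), not to label replicates.

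Each table was fitted whole in edgeR 4.0.16 (limma 3.58.1, R 4.3.3): TMM, filterByExpr with a minimum count of 10, glmQLFit and glmQLFTest, 1 coefficient per group, two-sided, Benjamini-Hochberg over all genes tested, threshold 0.05. The SE is the log2 fold over the square root of F. Likeness used log2 CPM with a prior count of 2. The scripts were tested on simulated data. All members are reported. The pathway lists were ligands, receptors, adaptors and kinases, inhibitors and regulators, and targets. Of each, the 2 largest rises and 2 largest falls per comparison qualified for naming. They had to be called, not overlapping and at least 1 CPM in the higher group. Fibroblast, non-neuroendocrine, neuroendocrine, leukocyte, endothelial and immediate-early marker lists are given as counts or sums. Members and lists were chosen with earlier results of these data known. A fold against a group with no read is a bound against 3 reads over that group, and intervals at 95% cover counting error only. Alternatives were library totals, DESeq2 1.42.0 size factors and test, limma-voom, other filters, a fold minimum of 2, pairwise fits, leaving out each library and a replicate block. Promoter windows came from RefSeq and gene overlaps from GENCODE.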

Additional observations from a re-analysis of the deposited data

Results flagged for a closer look

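NFKBIA was called higher in PD-L1 high over PD-L1 low cells (log2 difference 1.34), while its difference for HLA high over HLA low was -0.082 and not called (adjusted p = 0.236). Both HLA high libraries lay below both HLA low ones, and groups that do not overlap were found for 90.2% of all genes there. Calls in opposite directions were made for NFKBID (1.84 between the PD-L1 fractions and -1.42 between the HLA fractions), TAB1 (-0.24 between the PD-L1 fractions, 0.16 between the HLA fractions) and TNFRSF11A (-1.33 for PD-L1 high over low, 0.44 for HLA high over low).

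The derivatives H69M and RPP-A separated from their parents in opposite directions for the members ICAM1 (5.61 for H69M over H69, -2.95 for RPP-A over RPP), NFKBIA (-0.43 for H69M, 2.50 for RPP-A) and RELA (-0.38 for H69M, 1.41 for RPP-A). Of all genes tested, 35.9% were called higher and 36.6% lower in H69M, and 37.6% higher and 40.6% lower in RPP-A. The share of all genes with opposite directions was not counted, so these members are not set apart from other genes. Other pathway genes that did so were CFLAR (-0.48 for H69M, 1.69 for RPP-A), IRAK4 (-0.74 for H69M, 3.77 for RPP-A), LTBR (-0.78 for H69M, 1.68 for RPP-A), OTULIN (-0.21 for H69M, 0.91 for RPP-A), RIPK1 (-0.50 for H69M, 0.79 for RPP-A) and TAB3 (0.45 for H69M, -1.08 for RPP-A). None of these differences between comparisons was tested.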

How the results depend on the processing

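Of 997 alternative values for the 72 member log2 fold changes, 982 kept their direction and their side of the threshold. With a fold minimum of 2, the members called were 4 for H69M over H69, 3 for PD-L1 low over H69, 4 for PD-L1 low over H69M and 5 for PD-L1 high over H69M, against 8, 8, 7 and 9. Sign changes touched 3 differences, none of them called. REL in the PD-L1 sort was 0.016 with DESeq2 size factors, 0.018 with the DESeq2 test and between -0.14 and 0.050 with each library left out. TNFAIP3 between H69M and H69 lay between -0.090 and 0.0014, and NFKB2 between PD-L1 low and H69M between -0.059 and 0.20. The cause was not tested. The 8 values that gained or lost a call are given with their genes above. Label replicate numbers did not pair the libraries (correlations of same-numbered deviations between -0.16 and 0.09), and with the replicate block the members called stayed at 8 for H69M over H69, 8 in the PD-L1 sort, 8 for PD-L1 low over H69, 8 for PD-L1 high over H69, 7 for PD-L1 low over H69M, 9 for PD-L1 high over H69M and 7 in the HLA sort. No paired analysis was possible for the mouse lines because their columns carry no label replicate numbers. Depth limits BIRC3 in H69, PD-L1 low and HLA low cells and Icam1 in RPP-A.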
